A study of Mus musculus with 23 samples.

Results

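The E2F transcription factors and the retinoblastoma pocket proteins were described in 4 mouse medulloblastoma models and normal cerebellum. The members were E2f1, E2f2, E2f3, E2f4, E2f5, E2f6, E2f7, E2f8, Rb1 and Rbl1, taken as every probe set of the array annotated to one of these symbols and to no other gene. This gave 10 genes of 18194 and 22 probe sets of 45101. Of a gene's probe sets, the one with the highest mean level in the 23 arrays was taken as the used one, and the others are described separately. Values are RMA levels on a log2 scale from Affymetrix whole-genome mouse arrays. Each probe set has its own affinity, so levels were compared between samples and not between genes.

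The CRISPR-Ptch1 group held 3 tumours with Cas9-induced mutation of Ptch1, the receptor that restrains the Shh pathway. Of these, 2 came from in utero electroporation of wild-type embryos at E13.5 (EP) and 1 from polyethylenimine transfection of a Trp53-/- mouse at P0 (TF), so that the transfected tumour differed in route, age and Trp53 genotype at once. Among the other models, 4 GTML tumours carried an inducible MycN transgene under a Glt1 driver, 5 MERP tumours came from Atoh1-CreERT2;Ptch1 fl/fl mice, in which Cre is limited to Atoh1-expressing cells, and 4 tumours arose in germline Ptch1+/- mice. Normal samples were 3 preparations of granule neuron precursors (GNPs), the cells from which SHH tumours arise, isolated between P4 and P7, and 4 adult cerebella. The labels give the CD1 strain throughout, whereas the study's methods name C57BL/6N for transfected mice. No array batch, sex, or age of the tumours and adults was given, so batch and group cannot be told apart. For its expression figure the study lists 3 EP and 3 TF mice, more than the 2 and 1 samples here, without naming the sample of each mouse. For the other groups no source used here gives the animals behind a sample. A p-value therefore covers the spread among the deposited samples and no more.

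E2F factors bind DNA with a dimerization partner of the Tfdp family and control genes of DNA replication and mitosis. In resting cells the pocket proteins Rb1, Rbl1 (p107) and Rbl2 (p130) hold E2Fs in repressive complexes. Cyclin D with Cdk4 or Cdk6, followed by cyclin E with Cdk2, phosphorylates the pocket proteins and frees the E2Fs for entry into S phase. E2f1, E2f2 and E2f3 are known as activators, E2f4 and E2f5 as repressors that work with pocket proteins, E2f6 as a repressor within a Polycomb complex, and E2f7 and E2f8 as atypical repressors that bind DNA without a partner. In the postnatal cerebellum Shh drives the division of GNPs, while the adult tissue holds mostly cells that no longer divide.

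Some members of the family are themselves known E2F targets, so the promoters in the RefSeq table (GRCm38.p6, 250 bases before to 50 bases after each start) were searched for the E2F element, written as TTTNNCGC with the Ns limited to C or G, on both strands. Promoters of 7 members were in the table, and 3 of them held the element before the start. These 3, E2f3, E2f7 and Rbl1, are shown 5′ to 3′ on the strand of the gene, with the element in capitals. The promoters of E2f1, E2f6 and E2f8 held none. A link between the element and the levels was not tested. The element began 18 bases before the start in Rbl1 (chr2:157204535-157204592, minus strand), 198 bases before it in E2f7 (chr10:110745201-110745288, plus strand, element on the opposite strand) and 11 bases before one of the starts of E2f3 (chr13:29986064-29986114, minus strand, element on the opposite strand).
Rbl1: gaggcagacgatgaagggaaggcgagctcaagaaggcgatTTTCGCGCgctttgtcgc
E2f7: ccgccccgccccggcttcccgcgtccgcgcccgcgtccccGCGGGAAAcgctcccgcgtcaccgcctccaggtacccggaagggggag
E2f3: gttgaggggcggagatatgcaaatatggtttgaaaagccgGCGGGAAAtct
In E2f2 the element lay 40 bases after the start. Of all 27025 genes in the table, 2.16% held it within the 250 bases before a start, and of the 25 genes in the table from a list of G1/S genes known as E2F targets, 7 did (28.0%). A match is a description of the sequence and not a measured binding site. E2f4, E2f5 and Rb1 were not in the table.

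RMA brought the array medians over all probe sets to between 5.999 and 6.17, but the median over the 18194 genes differed, with means of 7.52 in CRISPR-Ptch1, 7.15 in GTML, 7.32 in MERP and 7.04 in Ptch1+/- tumours, 7.58 in GNPs and 7.35 in adult cerebella. Centring the arrays on the median of this gene table ended 17 calls, turned the sign of 2 more and added 18, and these are named below. The GNP marker list (8 genes) averaged between 11.13 and 11.36 in CRISPR-Ptch1, between 11.17 and 11.54 in MERP and between 11.41 and 11.63 in Ptch1+/- tumours, against 7.97 to 8.64 in GTML tumours, 11.47 to 11.53 in GNPs and 8.57 to 8.84 in adult cerebella. Its genes did not all move alike. Atoh1, Barhl1, Nhlh1, Pax6, Insm1 and Zic2 had lower means in GTML tumours and adult cerebella than in GNPs. Neurod1 had 13.53 in GTML tumours and 13.82 in adult cerebella, against 13.63 in GNPs. Zic1 had 6.27 in GTML tumours and 13.94 in adult cerebella, against 13.58 in GNPs. Purkinje cell markers reached 9.15 and 10.75 in the EP tumours and 8.39 in the TF tumour, against 4.63 to 5.23 in MERP and Ptch1+/- tumours and 13.37 to 13.47 in adult cerebella. In bulk tissue, fewer cells of a type and less RNA per cell cannot be told apart, and the part of these other cells in the results was not tested.

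Against adult cerebellum, the family was mostly higher in every tumour model and in GNPs. Of 50 pairs of a gene and a comparison, 40 were higher and 3 lower, or 43 called, where 52.3% of all such pairs over 18194 genes were called (limma, adjusted p under 0.05 over all genes of a comparison). E2f1, E2f2, E2f3, E2f7, E2f8 and Rbl1 were higher in all 5 comparisons. In CRISPR-Ptch1 tumours 8 members were higher and 1 was lower, where 47.5% of all genes were called (26.4% higher, 21.1% lower). In GTML tumours 8 were higher and none was lower, where 55.3% were called (27.3% higher, 27.9% lower). In MERP tumours 9 were higher, where 55.7% were called (30.8% higher, 24.9% lower). In Ptch1+/- tumours 7 were higher and 1 lower, where 53.2% were called (22.4% higher, 30.8% lower), and in GNPs 8 were higher and 1 lower, where 50.1% were called (29.1% higher, 21% lower). The median log2 difference of the 10 members lay between 1.39 in GTML and 2.21 in MERP tumours, while that of all genes lay between -0.03 and 0.08. These comparisons share the adult arrays.

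**Figure D1:**
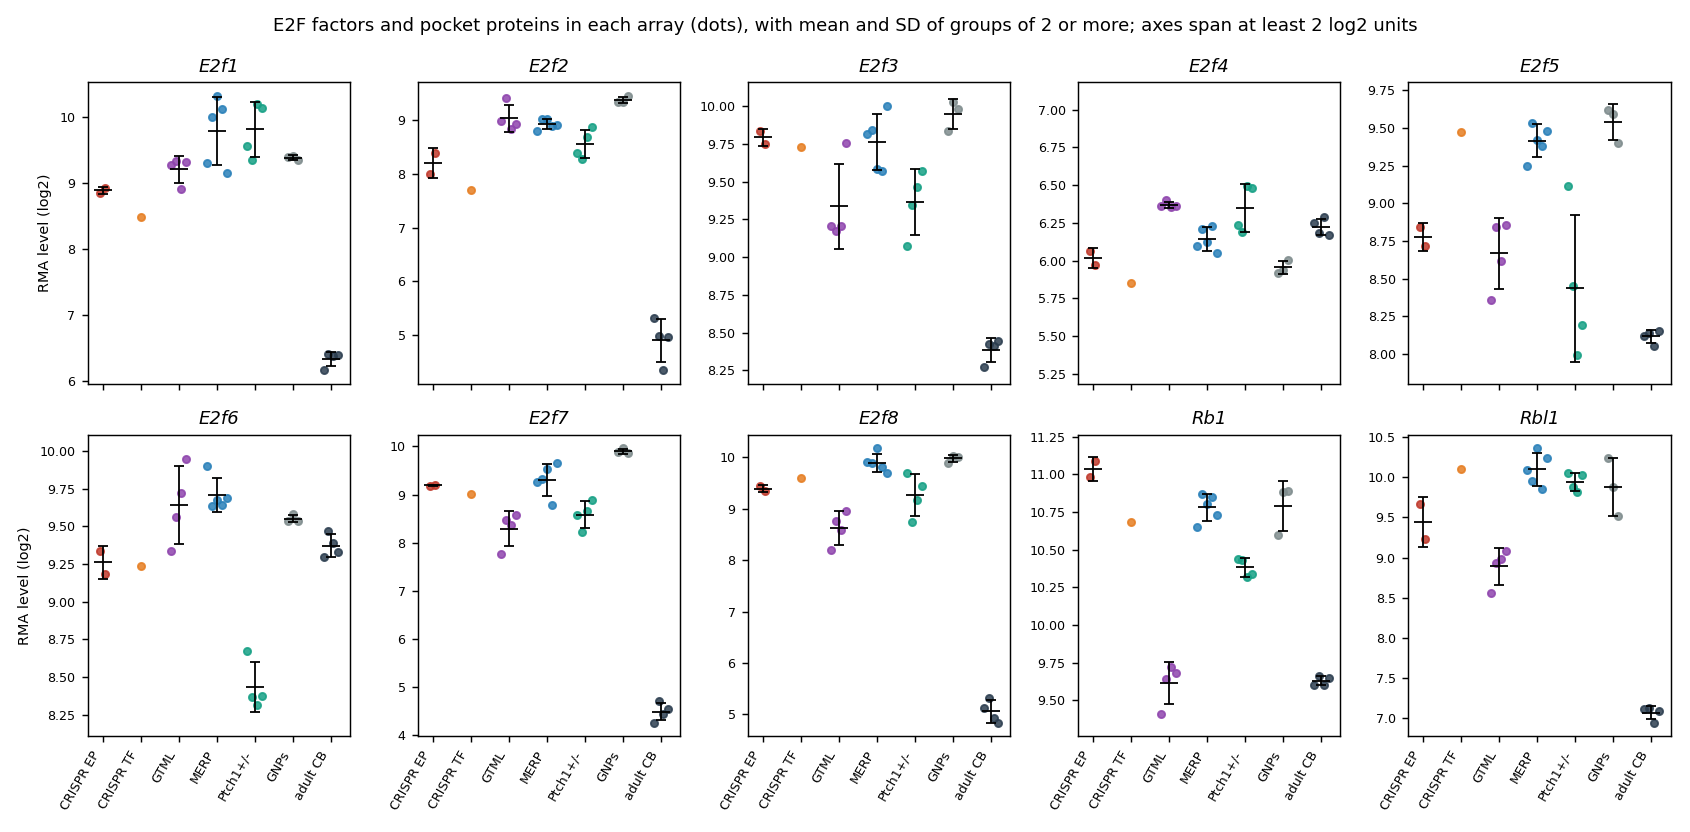
RMA level (log2) of each member on its used probe set in each array (dots), with mean and SD for groups of 2 or more arrays, for CRISPR-Ptch1 tumours by route (EP, TF), GTML, MERP and Ptch1+/- tumours, GNPs and adult cerebella (CB). E2f1, E2f2, E2f3, E2f7, E2f8 and Rbl1 were lowest in all 4 adult cerebella, Rb1 was equally low in GTML tumours and adult cerebella, and E2f6 was lowest in the 4 Ptch1+/- tumours.

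Among the activators, E2f1 (chr2:154559400-154569892 in GRCm38.p6, as for all positions here), whose product triggers entry into S phase, had levels of 8.85 and 8.93 in the EP tumours and 8.49 in the TF tumour. It had 9.27, 9.34, 8.91 and 9.32 in GTML tumours, 9.31, 9.999, 10.32, 10.13 and 9.16 in MERP tumours, and 9.56, 9.36, 10.20 and 10.14 in Ptch1+/- tumours. GNPs gave 9.40, 9.41 and 9.35, and adult cerebella gave 6.16, 6.41, 6.38 and 6.39. The adult samples lay below every other sample, and no group of tumours overlapped them. The mean was 8.76 ± 0.24 in CRISPR-Ptch1 tumours and 6.33 ± 0.11 in adult cerebella (SD, n = 3 and 4), a difference of 2.42 ± 0.24 (SE, adjusted p = 2.92e-08, limma). The other 4 comparisons with adult cerebellum gave differences between 2.88 and 3.48.

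E2f2 (chr4:136172274-136196057), an activator close to E2f1 in function, had 8.01 and 8.40 in the EP tumours, 7.70 in the TF tumour, and 9.34, 9.35 and 9.46 in GNPs, against 5.32, 4.98, 4.34 and 4.96 in adult cerebella. The CRISPR-Ptch1 tumours lay above every adult cerebellum and below every GNP sample. The difference from adult cerebellum was 3.14 ± 0.20 in CRISPR-Ptch1 tumours (adjusted p = 2.05e-11, limma) and between 3.66 and 4.48 in the other comparisons. E2f3 (chr13:29906575-29986064), an activator needed for the division of many cell types, ranged from 9.07 to 10 in the 16 tumours and from 9.84 to 10.03 in GNPs, against 8.27 to 8.44 in adult cerebella. Its differences from adult cerebellum lay between 0.95 in GTML tumours and 1.56 in GNPs, and on this probe set its groups did not overlap with the adults in any of the 5 comparisons. On its second probe set adult cerebella had 5.68 to 5.87. There the CRISPR-Ptch1 (from 5.84), GTML (from 5.63) and Ptch1+/- tumours (from 5.78) overlapped with them, and MERP tumours and GNPs did not.

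The atypical repressors spanned the widest ranges. E2f7 (chr10:110745439-110787384) had 9.18, 9.20 and 9.003 in the EP and TF tumours, 7.76, 8.47, 8.37 and 8.56 in GTML tumours, 9.25, 9.32, 9.52, 8.78 and 9.66 in MERP tumours and 8.57, 8.22, 8.65 and 8.89 in Ptch1+/- tumours. GNPs gave 9.89, 9.96 and 9.86 and adult cerebella gave 4.26, 4.70, 4.44 and 4.55. All GNP samples lay above all tumours, and all tumours lay above all adult cerebella. The difference from adult cerebellum was 4.64 ± 0.20 in CRISPR-Ptch1 tumours (25-fold, adjusted p = 2.82e-14, limma), 3.81 in GTML, 4.82 in MERP, 4.10 in Ptch1+/- tumours and 5.42 in GNPs. The adult mean of 4.49 was at the lower quartile of all probe sets on those arrays (4.48), near the floor of the array, which limits these folds. The SD of E2f7 over the 23 arrays, 1.84, was larger than that of 97.9% of all genes.

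E2f8 (chr7:48866429-48882073), the partner and close relative of E2f7, had 9.43 and 9.34 in the EP tumours, 9.60 in the TF tumour and 9.89, 10.03 and 10.01 in GNPs, against 5.13, 5.33, 4.93 and 4.84 in adult cerebella. In GTML tumours it had 8.19, 8.76, 8.58 and 8.96, while MERP tumours ranged from 9.70 to 10.17 and Ptch1+/- tumours from 8.75 to 9.69. The GTML tumours were all below the CRISPR-Ptch1 and MERP tumours and the GNPs, and 2 of them fell within the range of the Ptch1+/- tumours. Differences from adult cerebellum were 4.399 ± 0.19 in CRISPR-Ptch1 tumours (21.1-fold, adjusted p = 4.17e-14, limma) and between 3.56 in GTML tumours and 4.92 in GNPs.

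Of the pocket proteins, Rbl1 (chr2:157145893-157204534), which is low in resting cells and known to accumulate in dividing ones, had 9.67 and 9.22 in the EP tumours, 10.10 in the TF tumour and 10.24, 9.88 and 9.52 in GNPs, against 7.10, 7.12, 6.94 and 7.09 in adult cerebella. GTML tumours had 8.56, 8.93, 8.99 and 9.08, MERP tumours ranged from 9.85 to 10.36 and Ptch1+/- tumours from 9.82 to 10.05. No tumour overlapped with the adults, and the GTML tumours lay between the adults and all other samples. The difference from adult cerebellum was 2.60 ± 0.18 in CRISPR-Ptch1 tumours (6.07-fold, adjusted p = 1.55e-10, limma), 1.82 in GTML, 3.04 in MERP, 2.88 in Ptch1+/- tumours and 2.81 in GNPs.

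Rb1 (chr14:73192858-73325951), the retinoblastoma protein itself, had 10.98, 11.09 and 10.68 in the EP and TF tumours, 9.41, 9.64, 9.72 and 9.68 in GTML tumours, 10.65, 10.87, 10.80, 10.85 and 10.73 in MERP tumours and 10.44, 10.43, 10.32 and 10.34 in Ptch1+/- tumours. GNPs gave 10.60, 10.88 and 10.89 and adult cerebella gave 9.60, 9.66, 9.60 and 9.65. GTML tumours and adult cerebella overlapped, and every other sample lay above both. The difference from adult cerebellum was 1.29 ± 0.11 in CRISPR-Ptch1 tumours (adjusted p = 2.24e-09), 1.15 in MERP, 0.75 in Ptch1+/- tumours and 1.16 in GNPs. In GTML tumours it was -0.02 (95% interval -0.22 to 0.19, adjusted p = 0.91, limma).

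**Figure D2:**
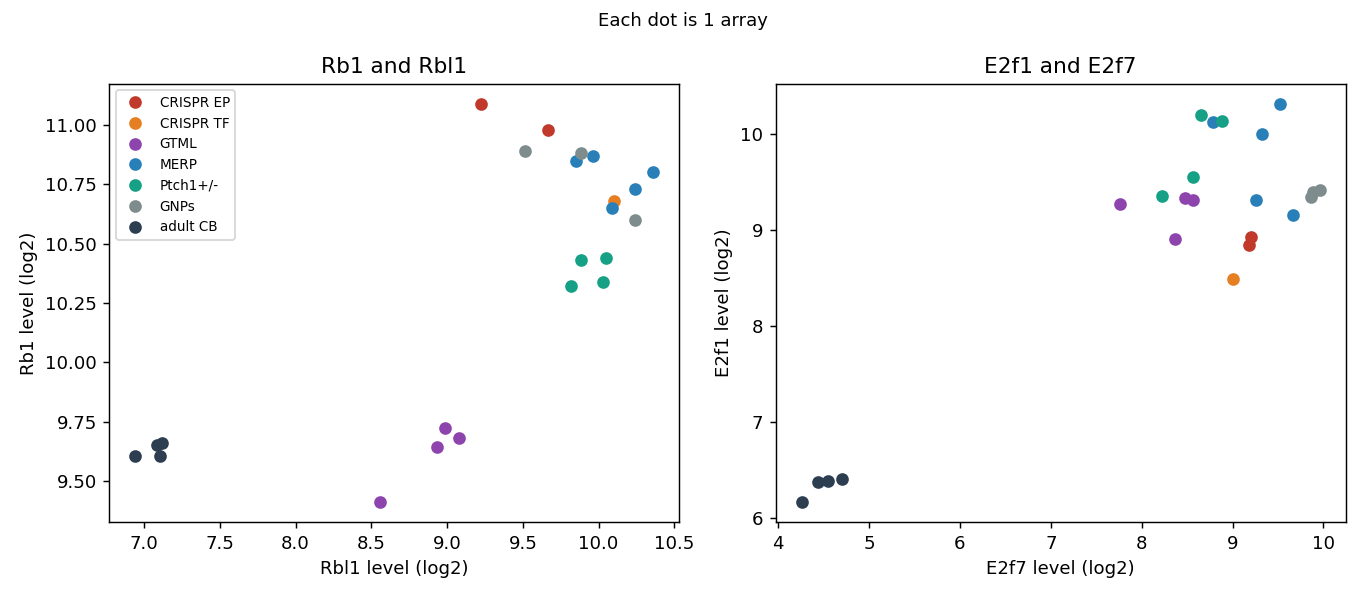
Level (log2) of Rb1 against Rbl1 (left) and of E2f1 against E2f7 (right), with 1 dot per array and colours for the groups. The 4 GTML tumours had Rbl1 levels of 8.56 to 9.08 at Rb1 levels of 9.41 to 9.72, beside the adult cerebella on the Rb1 axis. The 3 CRISPR-Ptch1 tumours had E2f1 levels of 8.49 to 8.93, a range that held GTML tumour 3 (8.91) and no other tumour.

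The remaining repressors were E2f4, E2f5 and E2f6. E2f4 (chr8:105297663-105305370), the main E2F of resting cells, stayed between 5.85 and 6.49 in all 23 arrays. Its levels were 6.06, 5.97 and 5.85 in the EP and TF tumours and 5.92 to 6.005 in GNPs, against 6.17 to 6.29 in adult cerebella, without overlap. The differences of -0.26 in CRISPR-Ptch1 tumours (adjusted p = 0.0222) and -0.27 in GNPs (adjusted p = 0.0175) passed the test. The first was not called without EP tumour 2, the TF tumour or adult cerebellum 3 (adjusted p up to 0.117), and the second was not called without GNP sample 1 or 2 (adjusted p up to 0.0579). Only 11.6% of all genes had a smaller SD over the arrays.

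E2f5 (chr3:14578602-14606309), a repressor that also acts in the formation of multiciliated cells, had 8.84, 8.71 and 9.47 in the EP and TF tumours, 8.36 to 8.85 in GTML, 9.25 to 9.53 in MERP and 7.99 to 9.11 in Ptch1+/- tumours. It had 9.40 to 9.62 in GNPs, against 8.06 to 8.15 in adult cerebella. Only the Ptch1+/- tumours overlapped with the adults. Differences of 0.89 ± 0.20 in CRISPR-Ptch1 (adjusted p = 8.71e-04), 0.55 in GTML, 1.29 in MERP tumours and 1.42 in GNPs passed the test, and that of 0.32 in Ptch1+/- tumours did not (95% interval -0.07 to 0.71, adjusted p = 0.169), but passed without Ptch1+/- tumour 3 (0.47, adjusted p = 0.0436).

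E2f6 (chr12:16810909-16826752), the Polycomb-associated repressor, had 8.68, 8.36, 8.31 and 8.38 in Ptch1+/- tumours, against 9.30, 9.47, 9.39 and 9.33 in adult cerebella. All other tumours and the GNPs lay between 9.18 and 9.95, so that the Ptch1+/- tumours stood alone below them. The difference from adult cerebellum was -0.94 ± 0.11 in Ptch1+/- tumours (adjusted p = 2.56e-07), and 0.34 in MERP tumours (adjusted p = 0.0098). The difference of 0.27 in GTML tumours (adjusted p = 0.0456) was at the threshold and was not called in 16 of the 23 fits that left out 1 array (adjusted p up to 0.195). On the second probe set of E2f6 the MERP and GTML differences were downward. There the Ptch1+/- tumours (7.51) were still below the adult cerebella (7.75), but GTML tumours (5.70) were lowest, as given below.

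Ordered by mean, GNPs came first for E2f2, E2f3, E2f5, E2f7 and E2f8, and adult cerebella came last for E2f1, E2f2, E2f3, E2f5, E2f7, E2f8 and Rbl1. For E2f7 the order was GNPs 9.90, MERP 9.31, CRISPR-Ptch1 9.13, Ptch1+/- 8.58, GTML 8.29 and adult cerebella 4.49, and the neighbours MERP and CRISPR-Ptch1, and Ptch1+/- and GTML, did not differ beyond their spread (adjusted p = 0.572 and 0.211). For E2f1 the order was Ptch1+/- 9.81, MERP 9.78, GNPs 9.39, GTML 9.21, CRISPR-Ptch1 8.76 and adult cerebella 6.33, and no neighbours apart from the last pair passed the test. For Rb1 the order was CRISPR-Ptch1 10.92, GNPs 10.79, MERP 10.78, Ptch1+/- 10.38, adult cerebella 9.63 and GTML 9.62, with steps that passed the test between MERP and Ptch1+/- (adjusted p = 0.0025) and between Ptch1+/- and adult cerebella (adjusted p = 1.25e-06).

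Against GNPs, most calls were lower in the tumours. Of 40 pairs of a gene and a comparison, 2 were higher and 16 lower, or 18 called, where 28.5% of all such pairs were called. In CRISPR-Ptch1 tumours 2 members were lower, E2f2 and E2f7, where 13.7% of all genes were called (5.79% higher, 7.95% lower). In GTML tumours 6 were lower and 1 higher, where 41.8% were called (16.1% higher, 25.7% lower). In MERP tumours 1 was lower, E2f7, where 19.2% were called (7.12% higher, 12.1% lower). In Ptch1+/- tumours 7 were lower and 1 higher, where 39.3% were called (9.4% higher, 29.9% lower). With the arrays centred on the median of the gene table, which is highest in GNPs, the split was 9 higher and 10 lower.

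E2f7 was lower in all 4 tumour models than in GNPs, by the values given above. The difference was -1.61 ± 0.20 in GTML tumours (adjusted p = 1.03e-06) and -1.32 ± 0.20 in Ptch1+/- tumours (adjusted p = 1.75e-05), and both calls held under every alternative. It was -0.77 ± 0.21 in CRISPR-Ptch1 tumours (adjusted p = 0.0148), a call lost without GNP sample 2 (adjusted p = 0.0523). It was -0.59 ± 0.19 in MERP tumours (adjusted p = 0.0287), a call lost without MERP tumour 4 or any 1 of the GNP samples (adjusted p between 0.071 and 0.0994). E2f7 has 1 probe set on the array, so no second measurement was at hand.

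E2f2 was lower than in GNPs in CRISPR-Ptch1 tumours, by 1.35 on the log2 scale (SE 0.21, 95% interval of the difference -1.78 to -0.91, adjusted p = 9.6e-05, limma), and the 2 groups did not overlap. The difference of -0.82 in Ptch1+/- tumours (adjusted p = 0.0020) was not called after centring on the gene table (-0.28). In GTML tumours E2f3, E2f5, E2f7, E2f8, Rb1 and Rbl1 were lower and E2f4 was higher than in GNPs, with differences of -0.61, -0.87, -1.61, -1.35, -1.17, -0.99 and 0.42 in that order. GTML tumours and GNPs did not overlap for any of these 7 genes. The 7 were named because they were called, and the share of all genes without overlap was not counted. After centring on the gene table the E2f3 difference was -0.18 and no longer called. In Ptch1+/- tumours the calls for E2f3 (-0.58), E2f8 (-0.71) and Rb1 (-0.41) were lost after the same centring, and the Rb1 difference was then 0.13. The lists of other cell types moved here too, since choroid plexus markers averaged 4.53 to 8.34 in the tumours, against 9.41 to 10.26 in GNPs and 6.15 to 6.42 in adult cerebella. Endothelial markers averaged 6.77 to 8.42 in the tumours, against 9.81 to 10.51 in GNPs, and meningeal markers 6.43 to 9.37 in the tumours, against 10.65 to 11.06 in GNPs, and the part of these cells was not tested.

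Between tumour models, 39 of 60 pairs were called, 19 higher and 20 lower in the group named first, where 33.6% of all pairs were called. CRISPR-Ptch1 tumours had 5 members higher and 3 lower than GTML tumours, where 36.8% of all genes were called (22.7% higher, 14.1% lower). They had 3 lower than MERP tumours, where 13.3% were called (8.2% higher, 5.15% lower), and 5 higher and 3 lower than Ptch1+/- tumours, where 36.8% were called (28.5% higher, 8.33% lower). GTML tumours had 1 higher and 7 lower than MERP tumours, where 39.2% were called (15.8% higher, 23.4% lower), and 2 higher and 4 lower than Ptch1+/- tumours, where 43.6% were called (27.1% higher, 16.6% lower). MERP tumours had 6 higher than Ptch1+/- tumours, where 32% were called (25.9% higher, 6.08% lower). The split of 19 higher and 20 lower was 8 and 25 after centring on the gene table. Fits on the compared groups alone called 25 of the 60 pairs, and a minimum change of 2-fold left 11. The shares of all genes above are those of the main fit and do not apply to these 2 counts.

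**Figure D3:**
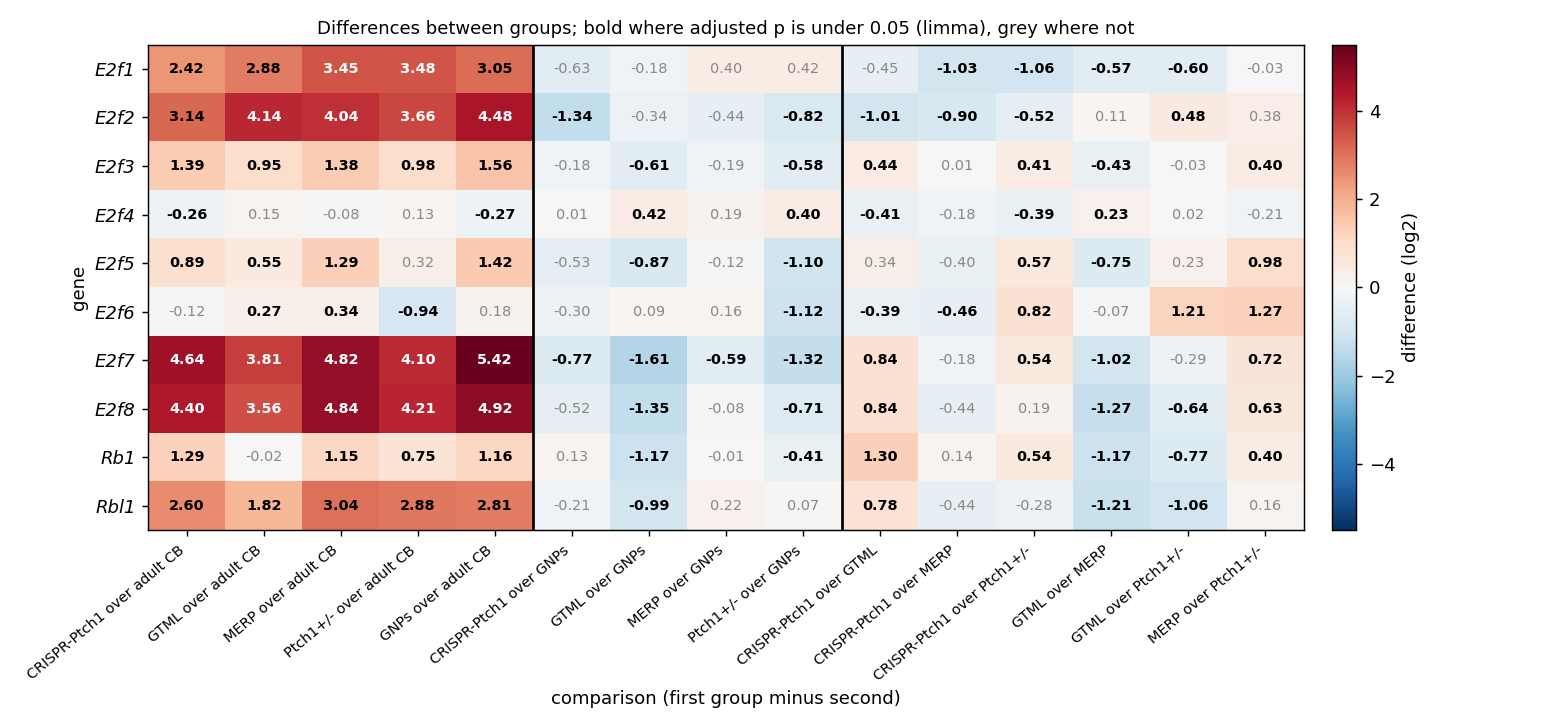
Log2 difference of each member (rows) in each of the 15 comparisons (columns, first group minus second), grouped as against adult cerebellum, against GNPs and between tumour models, with bold numbers where the adjusted p was under 0.05 (limma) and grey where it was not. Against adult cerebellum E2f7 and E2f8 had differences between 3.56 and 5.42, those of E2f7 limited by an adult level near the array floor, and Rb1 and Rbl1 were lower in GTML than in MERP and Ptch1+/- tumours.

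Rb1 set GTML tumours apart from the 3 Ptch1-mutant models. The difference of CRISPR-Ptch1 over GTML tumours was 1.304 ± 0.11 (2.47-fold, adjusted p = 6.45e-09), that of GTML over MERP tumours was -1.17 ± 0.09 (adjusted p = 2.97e-09) and that of GTML over Ptch1+/- tumours was -0.77 ± 0.10 (adjusted p = 2.11e-06, limma). Without any 1 array all 3 were still called, and the groups did not overlap. The dim second probe set of Rb1 gave 0.33 and -0.29 in the first 2 of these comparisons, neither called. Rbl1 was lower in GTML than in MERP tumours (-1.21 ± 0.16, adjusted p = 3.34e-06) and Ptch1+/- tumours (-1.06 ± 0.17, adjusted p = 2.9e-05), and its difference of CRISPR-Ptch1 over GTML tumours was 0.78 ± 0.18 (adjusted p = 0.0021), which fell to 0.40 and out of the calls after centring on the gene table.

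The atypical repressors had the same direction in GTML tumours. The differences of CRISPR-Ptch1 over GTML tumours were 0.84 ± 0.20 for E2f7 (adjusted p = 0.0019) and 0.84 ± 0.19 for E2f8 (adjusted p = 0.0015). Those of GTML over MERP tumours were -1.02 ± 0.17 for E2f7 (adjusted p = 6.34e-05) and -1.27 ± 0.17 for E2f8 (adjusted p = 2.83e-06). Against Ptch1+/- tumours E2f8 was lower in GTML tumours (-0.64, adjusted p = 0.0050), whereas E2f7 differed by -0.29 (95% interval -0.67 to 0.08, adjusted p = 0.211). E2f2 was not lower in GTML tumours, where its mean of 9.04 ± 0.25 (SD, n = 4) was above that of each Ptch1-mutant model. Its difference from MERP tumours was 0.11 (adjusted p = 0.676), and those from the other 2 models are given below.

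CRISPR-Ptch1 tumours had the lowest levels of E2f1 and E2f2 among the models. E2f1 differed by -1.03 ± 0.23 from MERP tumours (0.49-fold, adjusted p = 0.0055) and by -1.06 ± 0.24 from Ptch1+/- tumours (adjusted p = 0.0015), without overlap. With a fit on only these groups the MERP difference had an adjusted p of 0.0619. The difference from GTML tumours was -0.45 (95% interval -0.95 to 0.04, adjusted p = 0.147). E2f2 differed by -1.01 ± 0.20 from GTML tumours (adjusted p = 3.48e-04) and by -0.90 ± 0.19 from MERP tumours (adjusted p = 0.0035), again without overlap. On the used probe sets the TF tumour had the lowest level of all tumours for both genes, at 8.49 and 7.70. This did not hold on others. On another E2f1 probe set the TF tumour had 8.83, against a minimum of 8.665 in GTML tumours. On the second E2f2 probe set it had 6.78, against a minimum of 6.735 in the EP tumours. Markers of mature granule neurons averaged 9.12 and 10.52 in the EP tumours and 8.12 in the TF tumour, against 6.499 to 7.30 in the other tumours. Of this list Neurod2 went the other way in GTML tumours, with 9.55 to 10.09 against 7.47 to 9.26 in CRISPR-Ptch1 tumours. The other genes of the list had their highest tumour mean in CRISPR-Ptch1 tumours. The part of these cells was not tested.

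E2f6 was lower in Ptch1+/- tumours than in each other model on its used probe set, with differences of 0.82 ± 0.12 for CRISPR-Ptch1, 1.21 ± 0.11 for GTML and 1.27 ± 0.11 for MERP over Ptch1+/- tumours (adjusted p = 3.13e-05, 1.86e-08 and 3.02e-07, limma). Its second probe set gave -0.81, -1.81 and -0.59 in the same comparisons, of which the GTML difference was called in the opposite direction (adjusted p = 8.08e-04). The gap between 3′ and 5′ control probe sets, a measure of RNA and labelling quality, had its highest mean in Ptch1+/- tumours (1.83), against 1.29 in CRISPR-Ptch1, 1.38 in GTML and 1.58 in MERP tumours, and the part of RNA quality in these results was not tested.

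Several calls between models rested on single arrays. E2f1 in GTML against MERP tumours (-0.57) was lost without GTML tumour 1 or 3 or MERP tumour 2, 3 or 4 (adjusted p up to 0.114), and against Ptch1+/- tumours (-0.60) without GTML tumour 3 or Ptch1+/- tumour 3 or 4 (adjusted p up to 0.114). E2f2 in CRISPR-Ptch1 over Ptch1+/- tumours (-0.52) was lost without EP tumour 1, the TF tumour or Ptch1+/- tumour 3 or 4 (adjusted p up to 0.216), and in GTML over Ptch1+/- tumours (0.48) without GTML tumour 2 or Ptch1+/- tumour 1 or 2 (adjusted p up to 0.134). For E2f3 the differences of CRISPR-Ptch1 over GTML (0.44), CRISPR-Ptch1 over Ptch1+/- (0.41) and MERP over Ptch1+/- tumours (0.40) were lost without EP tumour 1 or GTML tumour 1, 2 or 3, without either EP tumour or Ptch1+/- tumour 1 or 2, and without MERP tumour 5 or Ptch1+/- tumour 1, in that order (adjusted p between 0.0512 and 0.0928). E2f4 in GTML over MERP tumours (0.23) was lost without GTML tumour 2 or MERP tumour 1 or 5 (adjusted p up to 0.0635). E2f5 in CRISPR-Ptch1 over Ptch1+/- tumours (0.57) was lost without the TF tumour or Ptch1+/- tumour 3 or 4 (adjusted p up to 0.22). E2f6 in CRISPR-Ptch1 over GTML (-0.39) and over MERP tumours (-0.46) was lost without EP tumour 2, and the first also without GTML tumour 4 (adjusted p up to 0.0672). E2f7 in CRISPR-Ptch1 over Ptch1+/- tumours (0.54) was lost without either EP tumour or Ptch1+/- tumour 1 or 2 (adjusted p up to 0.113). Centring on the gene table, whose median is lowest in Ptch1+/- tumours, ended the calls of E2f7, E2f8 and Rb1 in MERP over Ptch1+/- tumours (0.45, 0.35 and 0.12), of Rb1 in CRISPR-Ptch1 over Ptch1+/- tumours (0.06) and of E2f3 in GTML over MERP tumours (-0.26). Of the calls above that rested on single arrays it also ended those of E2f1 in GTML over MERP tumours (-0.40), E2f2 in GTML over Ptch1+/- tumours (0.37), E2f3 in CRISPR-Ptch1 over GTML (0.07) and MERP over Ptch1+/- tumours (0.12), E2f5 and E2f7 in CRISPR-Ptch1 over Ptch1+/- tumours (0.09 and 0.07) and E2f7 in MERP tumours over GNPs (-0.33). For E2f3 in CRISPR-Ptch1 over Ptch1+/- tumours the sign turned (-0.07).

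The same centring added 18 calls. E2f1 was then higher in MERP and Ptch1+/- tumours than in GNPs (0.66 and 0.96) and lower in CRISPR-Ptch1 than in GTML tumours (-0.83). Rbl1 was higher in MERP and Ptch1+/- tumours than in GNPs (0.49 and 0.61) and lower in CRISPR-Ptch1 than in MERP and Ptch1+/- tumours (-0.64 and -0.76). E2f4 was called in CRISPR-Ptch1 over MERP (-0.38), MERP over Ptch1+/- tumours (-0.49) and MERP tumours over GNPs (0.45), and over adult cerebellum in GTML and Ptch1+/- tumours (0.35 and 0.44). E2f5 was called in CRISPR-Ptch1 over MERP tumours (-0.61) and Ptch1+/- tumours over adult cerebellum (0.63), E2f6 in CRISPR-Ptch1 tumours over adult cerebellum (-0.29) and in GTML and MERP tumours over GNPs (0.52 and 0.42), and E2f8 in CRISPR-Ptch1 over MERP tumours (-0.64).

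The EP and TF tumours were pooled, but with 1 TF tumour the routes could not be tested. On the used probe sets the largest gaps between the TF tumour and the EP mean were in E2f5 (9.47 and 8.78), Rbl1 (10.10 and 9.45) and E2f2 (7.70 and 8.21), while E2f6 had 9.24 and 9.26 on its used probe set, but 8.11 and 5.99 on its second one. Without the TF tumour, E2f5 was called lower in the EP tumours than in GNPs (-0.76, adjusted p = 0.0218) and than in MERP tumours (-0.63, adjusted p = 0.0371), where the pooled group gave -0.53 and -0.40, neither called. The E2f5 difference from GNPs was also called without Ptch1+/- tumour 1 (adjusted p = 0.0369). Likewise Rbl1 was then lower than in MERP tumours (-0.66, adjusted p = 0.0177) and Ptch1+/- tumours (-0.50, adjusted p = 0.0425), where the pooled group gave -0.44 and -0.28. With the TF tumour alone as the CRISPR-Ptch1 group, an arm of 1 array assumed to vary like the other groups, 10 calls were lost and 1 was added. Those lost were E2f1 and E2f6 over MERP tumours, E2f3, E2f6 and E2f7 over GTML tumours, E2f3, E2f7 and Rb1 over Ptch1+/- tumours, E2f7 over GNPs, and E2f6 in GTML tumours over adult cerebellum, and E2f5 over GTML tumours was added (0.80).

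The 12 probe sets not used showed how far each gene's values depend on the choice. Both further E2f1 probe sets had the sign of the used one in 13 and 14 of 15 comparisons, the second of E2f2 in 13, one of E2f5 in 14 and one of Rbl1 in 12. Where such a probe set and the used one were both called, their directions were the same. Signs were shared in 9 comparisons for the second E2f3 probe set and in 8 for the dimmest of Rbl1, with the same direction in the 2 comparisons each where both were called. Opposite calls were found for the second probe sets of E2f8 (9 signs shared, 1 of 2 double calls opposite), Rb1 (10 shared, 2 of 8 opposite) and E2f6 (5 shared, 2 of 2 opposite) and for another of Rbl1 (10 shared, 3 of 6 opposite). Another E2f5 probe set had the same sign in only 3 comparisons, and in the 4 where both were called the direction was opposite. It measured 7.74 in CRISPR-Ptch1, 8.29 in GTML and 8.49 in Ptch1+/- tumours, against 7.68 in GNPs and 8.11 in adult cerebella. The second E2f6 probe set measured 5.70 in GTML and 7.51 in Ptch1+/- tumours, 6.33 in GNPs and 7.75 in adult cerebella, and 5.99 and 8.11 as the EP mean and the TF value. The Rbl1 probe set with opposite calls averaged 6.32 in Ptch1+/- tumours and between 3.76 and 5.09 in the other groups. The second Rb1 probe set had means of 5.27 in Ptch1+/- tumours and 5.23 in GNPs and between 3.90 and 4.58 in the other groups, where the lower quartile of the arrays lay between 4.40 and 4.61.

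**Figure D4:**
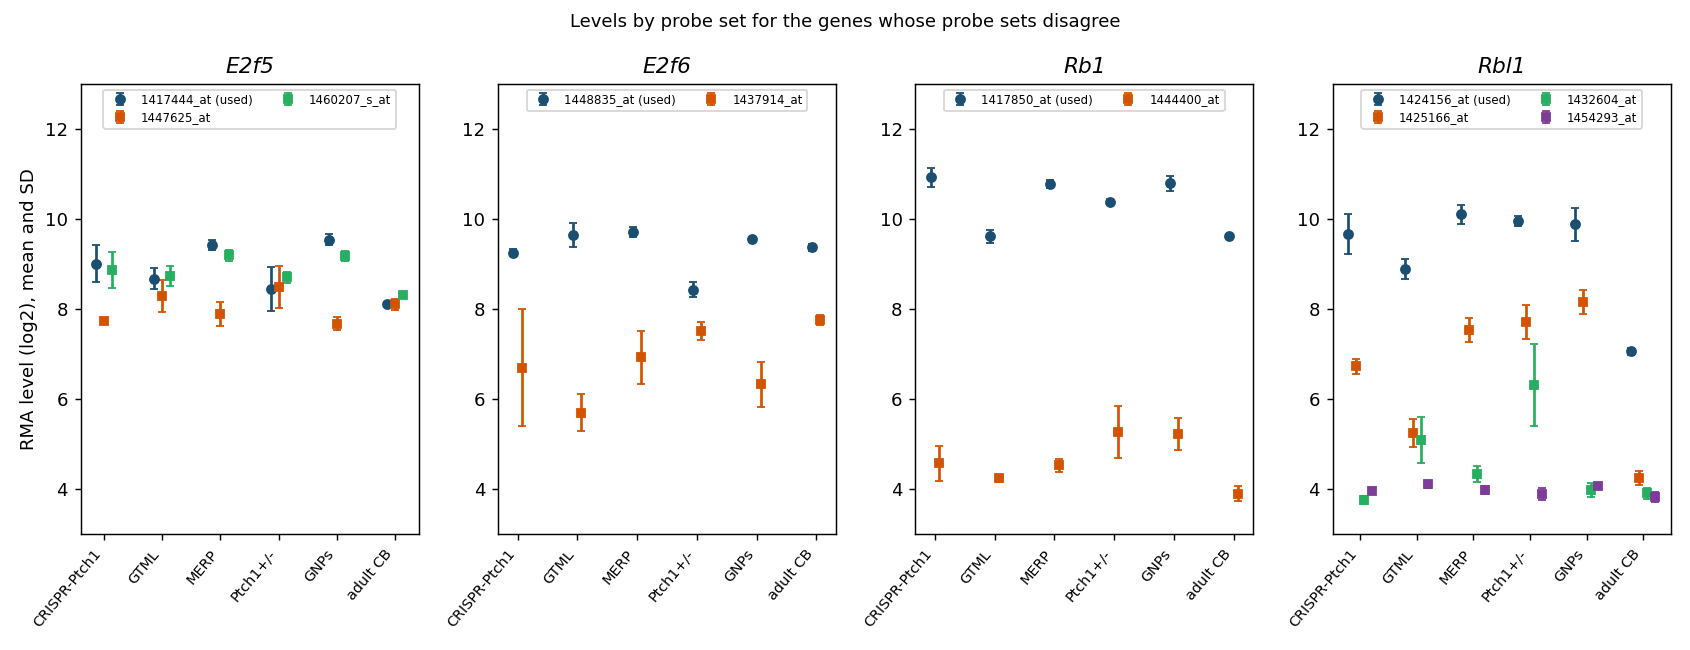
Mean RMA level (log2) with SD by group (n = 3 to 5) for every probe set of E2f5, E2f6, Rb1 and Rbl1, with the used probe set as circles and the others as squares. In E2f6 the used probe set was lowest in Ptch1+/- tumours (8.43) while the other was lowest in GTML tumours (5.70), and the second Rb1 probe set lay between 3.90 (adult cerebella) and 5.27 (Ptch1+/- tumours).

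Genes around the family were taken from lists written with earlier results of these data known. Of 28 measured G1/S genes known as E2F targets, 27 passed the test upward in CRISPR-Ptch1 tumours against adult cerebellum, where 26.4% of all genes did. Their median difference was 3.61, against 0.02 over all genes. Rrm2, the small subunit of ribonucleotide reductase, differed by 5.98, Uhrf1, which maintains DNA methylation, by 5.70 and Mcm6, of the replicative helicase, by 5.61. All 17 measured G2/M genes were higher, with a median of 5.69, led by Mki67 (7.77), Top2a (7.06) and Birc5 (6.85). In the other 4 comparisons with adult cerebellum at least 27 of the 28 and all 17 were higher. The mean level of the G1/S list lay between 10.41 and 10.92 in every tumour and GNP sample, against 6.81 to 6.98 in adult cerebella, so the GTML tumours, with 10.51 to 10.86, were within the range of the others on this list. Of the 17 G2/M genes, 10 were lower in GTML than in MERP tumours, where 23.4% of all genes were lower. Against Ptch1+/- tumours 3 were higher and 2 lower in GTML tumours, where 27.1% and 16.6% of all genes were. Between CRISPR-Ptch1 tumours and GNPs, where 13.7% of all genes were called, 1 of the 28 was called, with Uhrf1 lower (-0.52, adjusted p = 0.0497, limma). None of the 17 G2/M genes was called by limma, and 1 had an unadjusted p under 0.05. Tk1 and Tyms, of thymidine nucleotide synthesis (-0.62 and -0.57), and Mki67 and Cdc20 (-0.37 and -0.36) did not pass the test.

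Regulators of the pocket proteins were taken next. Of 8 cyclins and Cdks acting on pocket proteins, 7 rose in CRISPR-Ptch1 tumours against adult cerebellum, where 26.4% of all genes rose. They were led by Cdk6 (6.33), Ccnd2 (5.82) and Cdk4 (3.53). Of the 8, 5 were lower in GTML tumours than in GNPs, where 25.7% of all genes were lower. Between CRISPR-Ptch1 tumours and GNPs 1 of the 8 was called, Ccne1, near the 13.7% of all genes called there. Cdk6, a kinase of Rb1, had 11.48 and 11.24 in the EP tumours and 12.49 in the TF tumour, 5.98, 6.19, 5.37 and 8.58 in GTML tumours, and between 11.99 and 12.51 in all MERP and Ptch1+/- tumours. GNPs had 10.30 to 10.54 and adult cerebella 4.76 to 5.64. All GTML tumours lay below all other tumours and the GNPs, with GTML tumour 4 above the other 3 and GTML tumour 3 within the adult range. The difference of GTML tumours over GNPs was -3.91 (adjusted p = 8.97e-07) and that of CRISPR-Ptch1 over GTML tumours 5.21 (adjusted p = 2.42e-08, limma), while that of CRISPR-Ptch1 over GNPs was 1.3 and not called (adjusted p = 0.0959). Ccnd2, a D-type cyclin, was also lower in GTML tumours than in GNPs (-0.98), while Ccne1, cyclin E1, was higher in GTML than in MERP (0.45) and Ptch1+/- tumours (0.75), and CRISPR-Ptch1 tumours differed from GTML tumours by -0.99 and from GNPs by -0.68 (adjusted p = 0.0096).

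Of 7 Cdk inhibitors, 5 were lower in GTML tumours than in GNPs and 1 was higher, where 25.7% and 16.1% of all genes were. Cdkn2c, an inhibitor of Cdk4 and Cdk6, had 10.86 to 10.92 in CRISPR-Ptch1, 7.77 to 8.87 in GTML, 11.15 to 11.73 in MERP and 10.71 to 10.76 in Ptch1+/- tumours, with 10.71 to 10.80 in GNPs and 7.36 to 7.65 in adult cerebella. Cdkn2a, which encodes p16 and p19Arf, had 7.26 and 8.36 in the EP tumours and 10.22 in the Trp53-/- TF tumour. It had 9.82 to 10.27 in GTML tumours and 5.33 to 10.23 in MERP tumours, against 3.97 to 4.34 in GNPs. It was higher than in GNPs in CRISPR-Ptch1 (4.45, adjusted p = 4.29e-04) and GTML tumours (5.91, adjusted p = 1.6e-06), and no tumour overlapped with the GNPs. Cdkn2b, its neighbour, differed by 1.73 between CRISPR-Ptch1 tumours and GNPs (adjusted p = 1.74e-04).

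Of the dimerization partners, Tfdp1 and Tfdp2 both rose in CRISPR-Ptch1 tumours against adult cerebellum (1.66 and 1.07), where 26.4% of all genes rose. Against GNPs, where 13.7% of all genes were called, Tfdp2 was lower (-0.66, adjusted p = 0.0056, limma). Of the 7 genes of the MuvB core with B-MYB and FOXM1, which take over from E2f4 complexes in mitosis, 5 were higher than in adult cerebellum, with Mybl2 (2.17), Lin9 (1.77) and Lin54 (1.36) first, and limma called none between CRISPR-Ptch1 tumours and GNPs (1 with an unadjusted p under 0.05), where Foxm1 differed by -0.37 and Lin37 by 0.15. Of 9 measured partners of E2f6 in its Polycomb complex, 4 rose and 1 fell in CRISPR-Ptch1 tumours against adult cerebellum, where 26.4% of all genes rose and 21.1% fell, so that 5 of 9 called is near the 47.5% of all genes. Rnf2 (1.40), Wdr5 (1.25) and Mga (0.81) were the first. Against GNPs Mga was higher (0.56, adjusted p = 0.0207), and Max differed by 0.38 (adjusted p = 0.12). Of 5 measured germline genes known as E2F6 targets, limma called none against GNPs (1 with an unadjusted p under 0.05), where 13.7% of all genes were called. In Ptch1+/- tumours, where the used E2f6 probe set was lowest, 1 of the 5 was higher than in adult cerebellum and 1 was lower than in GNPs. Of all genes, 22.4% were higher and 29.9% lower in these comparisons, so the counts are near those shares.

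As a description, E2f7 and E2f8 were most alike of all pairs of members, with r = 0.99 over the 23 arrays, and r = 0.53 over the same arrays after each group's mean was removed. The arrays share groups, so they are not independent points. The genes most like E2f7 were E2f8, Myb (0.98) and Tk1 (0.98), those most like E2f8 were Hnrnpd, Racgap1 and Kif18b (0.99 each), and those most like Rbl1 were Scml2 (0.99), Pif1 (0.98) and Tcf3 (0.97). For E2f1 they were Rhno1, Rcor2 and 2410002F23Rik (0.97 each), for E2f2 Trip13, Shcbp1 (0.98 each) and Dbf4 (0.97), and for E2f3 Mapre1 (0.96), E2f7 and U2af1 (0.95 each). For E2f5 they were Trdmt1, Crnkl1 and Eapp (0.93 each), for E2f6 Syap1, 2610301B20Rik and Med29 (0.90 to 0.91), and for Rb1 Tcf19 and Limk1 (0.96 each) and Slfn9 (0.95). E2f4 had no gene above 0.88, with Smg9 first and Lin52, of the MuvB core, at 0.85. With each group's mean removed, r of the members with these genes was lower, from -0.29 (Rb1 with Slfn9) to 0.77 (E2f5 with Crnkl1). Much of the likeness over the arrays therefore lay between groups. E2f4 and E2f5 had r = -0.65 over the arrays and -0.59 within groups. Rb1 and Rbl1 had r = 0.76 over the arrays and -0.42 within groups.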

How the data were processed

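The samples were measured on Affymetrix mouse arrays, and the deposited values are log2 levels made by the authors with RMA (Affymetrix Expression Console 1.3.1). Which arrays were normalized together is not given in the sources used here. RMA scales each array to a common distribution, so levels are relative to all transcripts. No value was missing among 45101 probe sets and 23 arrays, and array files carry no read depth, so the number of arrays limits the precision.

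Platform annotation named 1 gene for 34958 probe sets, several for 932 and none for 9211, and 34754 were matched to RefSeq by gene ID. The probe set with the highest mean represented each of 18194 genes. Groups came from the sample titles. A single limma fit (3.58.1, R 4.3.3) of 6 groups gave 15 comparisons, with Benjamini-Hochberg adjustment within each over all genes and a threshold of 0.05, and fold changes are differences of log2 means. The fit was tested on simulated data with known changes in CRISPR-Ptch1 tumours over adult cerebellum, GNPs and Ptch1+/- tumours. It recovered 20.9% to 25.4% of log2 changes of 0.5, 71.6% to 76.1% of those of 1 and 92.4% to 98.5% of those of 2. A difference of about 0.5 that was not called is therefore not shown to be absent. Promoters were searched in Python 3.11.15 with pandas 2.3.3, and plots used matplotlib 3.10.9.

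Genes named were the 10 members with all probe sets, the 3 genes with the highest Pearson r to each member, and from each list of pathway genes the 3 with the largest CRISPR-Ptch1 difference from adult cerebellum and the 2 with the largest from GNPs, beside counts over the list. Genes outside this rule were chosen after their values were seen (Rbl2, Ccnd2 and Ccne1 between other groups, Uhrf1 against GNPs, Lin52). The pathway lists were dimerization partners, cyclins and Cdks, Cdk inhibitors, MuvB with B-MYB and FOXM1, G1/S genes, G2/M genes, E2f6 partners, germline genes and the multiciliated cell programme, and markers covered 10 cell types. Members and lists were chosen with earlier results of these data known.

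Alternatives were another centring (all probe sets or the gene table), renewed quantile normalization, other probe set rules, leaving out dim genes, trend and robust eBayes, array weights, fits on the compared groups alone, a minimum change of 2-fold, the TF tumour alone, a replicate block and leaving out each array.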

Additional observations from a re-analysis of the deposited data

Results flagged for a closer look

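Of the 40 sets of values formed by the 10 members in the 4 groups with 4 or 5 arrays, 5 held an array apart from its group by Dixon's gap test at the 95% level, where chance gives about 1 in 20. E2f1 was at 8.911 in GTML tumour 3, against 9.274 to 9.338 in the other GTML tumours, and at 6.165 in adult cerebellum 1, against 6.375 to 6.406 in the other adults. E2f3 was at 9.759 in GTML tumour 4, against 9.174 to 9.21 in the others, and the same tumour had the highest Cdk6 level of the GTML tumours (8.58). E2f4 was at 6.399 in GTML tumour 2, against 6.358 to 6.362, a gap that is small on the log2 scale. E2f6 was at 9.903 in MERP tumour 1, against 9.633 to 9.689 in the other MERP tumours.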

How the results depend on the processing

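Of 150 pairs of a member and a comparison, 100 were called, 83 of these kept call and direction without any 1 array, and 44 kept them under every alternative. Among the alternatives, the minimum change of 2-fold ends by definition every call with a smaller difference, here 49. The 44 therefore reflects the size of the differences as well as their stability. Counts of called pairs were 43 against adult cerebellum, 18 against GNPs and 39 between models, and ranged from 41 to 44, from 16 to 19 and from 35 to 40 without 1 array. Fits on the compared groups alone gave 25 between models. A minimum change of 2-fold gave 11 between models and 7 against GNPs. The shares of all genes called that are given above belong to the main fit, so these counts cannot be set against them. The split of higher and lower calls was 9 and 10 against GNPs and 8 and 25 between models after gene-table centring, and between models 8 and 23 with the mean of the probe sets, 12 and 23 with the most variable probe set.

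Directions turned mainly with the probe set rule. With the mean of a gene's probe sets these were E2f5 in CRISPR-Ptch1 over Ptch1+/- tumours (-0.0079), E2f6 over adult cerebellum in GTML tumours (-0.89), MERP tumours (-0.25) and GNPs (-0.62), E2f6 in Ptch1+/- tumours over GNPs (0.033), CRISPR-Ptch1 over GTML (0.30) and GTML over Ptch1+/- tumours (-0.30), Rb1 in CRISPR-Ptch1 (-0.075) and MERP over Ptch1+/- tumours (-0.17), and Rbl1 in MERP over Ptch1+/- tumours (-0.48). With the most variable probe set they were E2f2 in GTML over Ptch1+/- tumours (-0.17), E2f6 over adult cerebellum in GTML (-2.05), MERP (-0.83) and GNPs (-1.42), E2f6 in Ptch1+/- tumours over GNPs (1.19), CRISPR-Ptch1 over GTML (0.996), and CRISPR-Ptch1 (-0.81), GTML (-1.81) and MERP (-0.59) over Ptch1+/- tumours, Rb1 in Ptch1+/- over GNPs (0.035), CRISPR-Ptch1 (-0.69) and MERP (-0.74) over Ptch1+/- tumours, and Rbl1 in MERP over GNPs (-0.63). With any called probe set they were E2f5 in CRISPR-Ptch1 over GTML (-0.56) and over Ptch1+/- tumours (-0.75), E2f6 in GTML (-2.05) and GNPs (-1.42) over adult cerebellum, and Rbl1 in MERP over GNPs (-0.63) and over Ptch1+/- tumours (-1.98). Gene-table centring turned E2f3 in CRISPR-Ptch1 over Ptch1+/- tumours (-0.071) and Rb1 in Ptch1+/- tumours over GNPs (0.13). The cause was not tested.

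With the replicate block the counts were 41, 18 and 31. It ended 11 calls and added 1, but same-numbered arrays did not deviate together (median r = -0.00427 over 46 pairs, -0.28 to 0.23), so the numbers were not taken as pairs. Leaving out dim genes (10986 kept) dropped E2f4 and changed no other call. The adult level of E2f7 lies near the array floor, which limits its folds.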

Other observations

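E2f4 and E2f5 are known to work with Gmnc and Mcidas, not measured here, in the formation of multiciliated cells. The 7 measured genes of this programme averaged 6.53 to 6.61 in CRISPR-Ptch1, 6.43 to 6.90 in GTML, 6.59 to 6.79 in MERP and 6.47 to 6.62 in Ptch1+/- tumours, against 7.73 to 8.01 in GNPs and 5.72 to 5.78 in adult cerebella, without overlap. In CRISPR-Ptch1 tumours 5 of the 7 were lower than in GNPs, where 7.95% of all genes were lower, with a median of -1.46. Among them were Deup1, of the deuterosome (-2.86, adjusted p = 8.16e-12, limma), and Foxj1, the regulator of motile cilia (-2.38, adjusted p = 2.5e-10). The E2f5 difference between these groups was -0.53 and not called. Choroid plexus tissue carries motile cilia, its markers were high in the same GNP samples, and its part was not tested. Of this list Myb (4.69) and Rfx3 (1.12) rose in CRISPR-Ptch1 tumours against adult cerebellum, and Trp73 fell (-0.50).

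The dimerization partners moved in opposite directions in GTML tumours against GNPs, with Tfdp1 higher (0.42, adjusted p = 0.0153) and Tfdp2 lower (-1.94, adjusted p = 1.17e-09). The germline genes known as E2F6 targets averaged 4.80 to 5.19 in GTML tumours, against 3.96 to 4.05 in GNPs and 3.57 to 3.67 in adult cerebella, all near the array floor. In CRISPR-Ptch1 tumours Stag3, a meiotic cohesin, differed from adult cerebellum by 1.38 (adjusted p = 0.0661), and Stk31 by -0.07. Slc25a31 differed from GNPs by -0.51.

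Rbl2, the third pocket protein, is not among the 10 members and was chosen after its values were seen. Its means were 9.004 in CRISPR-Ptch1, 8.57 in GTML, 9.18 in MERP and 7.98 in Ptch1+/- tumours, 8.503 in GNPs and 8.497 in adult cerebella, with CRISPR-Ptch1 tumours above Ptch1+/- tumours by 1.03 (adjusted p = 9.02e-04, limma).

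Markers of other cells also separated groups. Astrocyte markers averaged 11 to 11.32 in CRISPR-Ptch1 and 6.22 to 9.67 in GTML tumours, against 12.29 to 12.34 in adult cerebella. Of this list Gfap alone had a higher mean in CRISPR-Ptch1 tumours (9.53) than in adult cerebella (8.63). Microglial markers averaged 8.15 to 9.56 in CRISPR-Ptch1 tumours, against 7.19 to 7.46 in GNPs. Oligodendrocyte markers averaged 6.57 to 8.53 in CRISPR-Ptch1 tumours, against 11.26 to 11.59 in adult cerebella, and erythroid markers stayed between 4.21 and 6.10 in all arrays.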
